A study of Mus musculus with 8 samples.

Results

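The immediate early genes and Socs3 were followed in the RNA of cardiac extracellular vesicles (EVs): Fos, Fosb, Jun, Junb, Egr1, Atf3, Ier2, Zfp36, Dusp1 and Socs3. They are the 10 entries with these symbols among 22481 mRNA identifiers of the deposited table, each has 1 entry, and all 10 passed the minimum of 0.5 FPKM on average that 12716 mRNAs passed. FPKM is the number of fragments scaled to transcript length and library size, so levels of different genes can be set side by side. The EVs came from male C57BL/6J mice aged 10 weeks, with 4 sham mice and 4 IR mice and 1 library per mouse. In IR mice the left anterior descending artery was tied for 45 min and reperfused for 24 h after opening of the chest under pentobarbital, and the controls were sham-operated. The sources name no engineered allele in either group. The left ventricle was perfused with saline and digested with collagenase before EVs were collected by ultracentrifugation, in both groups alike.

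Immediate early genes are transcribed within minutes of a stimulus without new protein synthesis, and most of their mRNAs are short-lived. Growth factors, stress and injury reach them through MAP kinases and serum response factor, and many encode transcription factors of the AP-1 and EGR families. In the heart, Fos, Jun and Egr1 are classical early responders to ischemia and reperfusion. Socs3 is induced by STAT3 and binds gp130 and inhibits the JAK kinases that activate STAT3, a feedback loop of IL-6 type cytokines. The study listed Socs3 as downregulated and chose it for RT-qPCR after sequencing these libraries. It reported a significant difference in the same direction by RT-qPCR. The same libraries are read here, so the direction of Socs3 here is not independent evidence.

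Before any difference is read, the labelled tissue was set against marker genes. Of 12 cardiomyocyte genes, Myl2, Nppa, Mb and Csrp3 were at 0 in all 8 libraries, and the 12 together summed to 2.55 to 6.05 FPKM. The 14 enterocyte genes had medians of 1047 to 1100 FPKM in sham and 1373 to 1502 in IR libraries, and their summed level was highest in IR 2, at 36230 FPKM against 21410 to 26620 in the other 7. These libraries therefore carried intestinal epithelial mRNAs and almost no contractile cardiomyocyte mRNA in both groups. Depth was 13824442 to 22497260 estimated fragments per library for mRNAs. In such bulk RNA, fewer cells of a type and less RNA per cell cannot be told apart.

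Promoter stretches of 4 of the 10 genes are printed because they held at least 1 of the motifs searched for. In Fos this was the TATA box alone. Of the 10 genes, 8 were matched in the RefSeq promoter table (GRCm38.p6), and Egr1 and Ier2 were not. Both strands of the 250 bases before each start were searched, and a match is a description of letters only. Bases farther upstream were not searched, so the absence of a motif, in Fos too, holds for this window only. Capitals mark the TATA box (TATAAA) in Fos, the CArG box, which serum response factor binds, and a STAT motif (TTCNNNGAA) in Zfp36, the cAMP response element (TGACGTCA) in Dusp1 and a STAT motif in Socs3.
Fos: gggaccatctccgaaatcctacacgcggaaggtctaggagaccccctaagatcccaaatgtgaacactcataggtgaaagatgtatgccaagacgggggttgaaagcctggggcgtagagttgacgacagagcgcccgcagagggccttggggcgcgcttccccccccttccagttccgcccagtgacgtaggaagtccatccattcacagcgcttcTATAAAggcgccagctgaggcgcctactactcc
Zfp36 CArG box: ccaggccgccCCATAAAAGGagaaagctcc
Zfp36 STAT motif: gccacagcctgacTTCTGCGAAccgacagt
Dusp1: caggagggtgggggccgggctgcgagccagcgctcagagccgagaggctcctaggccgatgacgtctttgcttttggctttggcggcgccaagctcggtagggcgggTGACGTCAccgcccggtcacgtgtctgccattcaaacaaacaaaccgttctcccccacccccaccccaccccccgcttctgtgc
Socs3 STAT motif: gaaaccagccTTCTTAGAAgggaggggggg
The stretches are chr12:85473640-85473889, plus strand, for Fos and chr17:26508532-26508722, minus strand, for Dusp1. Those of 30 bases are chr7:28379267-28379296, minus strand, and chr7:28379229-28379258, minus strand, for Zfp36, and chr11:117969501-117969530, minus strand, for Socs3. Other annotated transcripts of Zfp36, Dusp1 and Socs3 start farther upstream, so the printed stretches of these genes were kept short. The CArG box of Zfp36 lay 58 to 49 bases before the start, and 1.4% of 27025 promoters held one. The cAMP response element of Dusp1 lay 143 to 136 bases before the start (1.62% of promoters). The STAT motifs lay 154 to 146 bases before the start of Socs3 and 17 to 9 before that of Zfp36 (7.18% of promoters), and the TATA box of Fos 33 to 28 bases before the start (13.0%). The AP-1 motif TGANTCA (6.87% of promoters) and the EGR motif GCGTGGGCG (0.54%) were in none of the 8 windows.

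All 10 mRNAs were present in every EV library, and none differed between IR and sham mice beyond the spread between mice. Fos was the most abundant, and Fos, Zfp36, Junb and Jun stood in that order in 8 of 8 libraries. The order continued with Socs3, Ier2 and Atf3, whose neighbours kept their order in 5 of 8 libraries each and so did not differ beyond their spread. Dusp1 followed, below Atf3 in 8 of 8 libraries, and then Egr1 and Fosb, which traded places in 4 of 8.

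**Figure D1:**
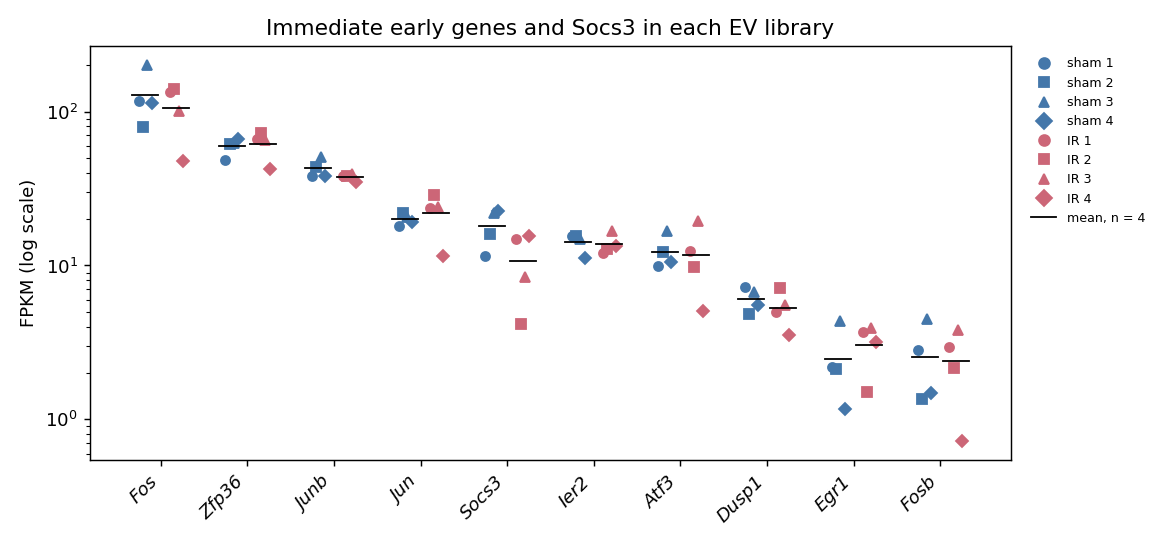
Level of each of the 10 mRNAs in FPKM (log scale) in the 4 sham (blue) and 4 IR (red) libraries, with the group mean as a bar. The groups overlap for every gene, from Fos (47.9 to 201 FPKM) down to Fosb (0.722 to 4.47 FPKM).

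Fos and Fosb encode the FOS subunits of AP-1, which bind DNA only paired with a JUN protein. Fos (chromosome 12, 85473890 to 85477274 in GRCm38.p6, plus strand) measured 118, 79.5, 201 and 113 FPKM in sham 1 to 4 and 134, 139.8, 101 and 47.9 FPKM in IR 1 to 4. Both the highest value, in sham 3, and the lowest, in IR 4, lay apart from the other 6, and the groups overlapped. The means were 128 ± 51.8 and 106 ± 42.2 FPKM (SD, n = 4 each). The log2 fold change of IR over sham was -0.18 (SE 0.40, 95% interval -1.08 to 0.73, edgeR adjusted p = 0.904). Fosb (chromosome 7, 19302696 to 19310118, minus strand) measured 2.82, 1.37, 4.47 and 1.49 FPKM in sham and 2.96, 2.15, 3.80 and 0.722 FPKM in IR libraries. Sham 3 and IR 4 were again the extremes. Fosb rested on 45 to 430 fragments per library, against 1049 to 6679 for Fos, and its log2 difference was 0.03 (SE 0.54, interval -1.18 to 1.24, edgeR adjusted p = 0.988).

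Jun and Junb encode JUN subunits of AP-1, of which JUN is the stronger activator. Jun (chromosome 4, 95049036 to 95052222, minus strand) measured 17.96, 22.1, 20.6 and 19.3 FPKM in sham and 23.6, 28.7, 24.1 and 11.6 FPKM in IR libraries. IR 1 to 3 lay above all 4 sham libraries and IR 4 below them, so the IR group (22.0 ± 7.31 FPKM, SD, n = 4) was more spread than the sham group (20.0 ± 1.76 FPKM). The log2 difference was 0.35 (SE 0.28, interval -0.29 to 0.99, edgeR adjusted p = 0.691). Without IR 4 it was 0.59 (SE 0.15), with an unadjusted edgeR p of 0.00338 and an adjusted p of 0.367 (5.77% of mRNAs tested had p under 0.05 and were higher in IR in that fit). Junb (chromosome 8, 84976909 to 84978748, minus strand) was the steadiest of the 10, at 38.2, 43.5, 51.0 and 38.1 FPKM in sham and 38.4, 38.1, 39.2 and 35.1 FPKM in IR libraries. The IR values lay within or just under the sham range, and the log2 difference was -0.07 (SE 0.14, interval -0.38 to 0.24, edgeR adjusted p = 0.880).

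Egr1, Atf3 and Ier2 complete the transcriptional regulators. Egr1, a zinc finger factor, lies on chromosome 18 (34861207 to 34864956, plus strand) and measured 2.18, 2.11, 4.35 and 1.17 FPKM in sham and 3.68, 1.52, 3.90 and 3.16 FPKM in IR libraries. Sham 3 had the highest value of all and sham 4 the lowest, so the sham range enclosed the IR range. The log2 difference was 0.40 (SE 0.42, interval -0.55 to 1.35, edgeR adjusted p = 0.774), and without sham 3 it was 0.90 (SE 0.33, unadjusted p = 0.0254, edgeR adjusted p = 0.572), where 3.38% of mRNAs tested had p under 0.05 and were higher in IR. Atf3, a CREB family factor of stress responses, measured 9.92, 12.2, 16.6 and 10.5 FPKM in sham and 12.5, 9.72, 19.4 and 5.08 FPKM in IR libraries. IR 3 was its highest and IR 4 its lowest library, and the log2 difference was 0.05 (SE 0.38, interval -0.81 to 0.91, edgeR adjusted p = 0.9751). The locus that the table lists for Atf3 spans 14 genes, whereas RefSeq places the gene on chromosome 1 from 191170296 to 191183333 (minus strand). Ier2 (chromosome 8, 84661331 to 84662852, minus strand) measured 15.6, 15.6, 14.8 and 11.1 FPKM in sham and 12.0, 12.8, 16.8 and 13.5 FPKM in IR libraries. Its groups overlapped over most of their range, with a log2 difference of 0.06 (SE 0.14, interval -0.26 to 0.38, edgeR adjusted p = 0.906).

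Zfp36 and Dusp1 are feedback inhibitors: ZFP36 binds AU-rich elements and hastens mRNA decay, and DUSP1 dephosphorylates MAP kinases. Zfp36 (chromosome 7, 28376784 to 28379228, minus strand) measured 48.6, 61.3, 62.4 and 66.1 FPKM in sham and 66.7, 72.4, 65.2 and 42.6 FPKM in IR libraries. As for Jun, IR 4 alone lay below the sham range. The log2 difference was 0.17 (SE 0.21, interval -0.30 to 0.64, edgeR adjusted p = 0.816). Dusp1 (chromosome 17, 26505591 to 26508472, minus strand) measured 7.26, 4.84, 6.69 and 5.54 FPKM in sham and 4.96, 7.09, 5.55 and 3.53 FPKM in IR libraries. IR 4 was again the lowest, and the log2 difference was -0.04 (SE 0.25, interval -0.61 to 0.53, edgeR adjusted p = 0.972).

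Socs3 had the largest difference of the 10 and was lower in IR on average, within the spread. With edgeR it did not reach the study's thresholds for a listed mRNA, a fold over 2 and an adjusted p under 0.05. It lies on chromosome 11 (117966079 to 117970336, minus strand) and measured 11.6, 15.9, 21.9 and 22.7 FPKM in sham and 14.9, 4.16, 8.48 and 15.5 FPKM in IR libraries. IR 2 and IR 3 lay below every sham library, and IR 1 and IR 4 lay between sham 1 and sham 2. The means were 18.04 ± 5.27 and 10.7 ± 5.41 FPKM (SD, n = 4 each). The log2 difference was -0.65 (SE 0.38, interval -1.51 to 0.21, unadjusted p = 0.120, edgeR adjusted p = 0.582), and the exact permutation p was 0.114 (two-sided, smallest possible 0.0286). Without sham 1 every IR value lay below every sham value, as for 5.97% of all mRNAs tested under the same omission, and the difference was -0.82 (SE 0.40, unadjusted p = 0.0750, edgeR adjusted p = 0.716). The RT-qPCR primers of the study, shown to place that assay in the gene, lie wholly in the coding sequence and span 145 bases of it, with the start codon in capitals.
forward primer: ATGgtcacccacagcaagttt
reverse primer: tccagtagaatccgctctcct
They match chr11:117968210-117968230 and chr11:117968086-117968106 in GRCm38.p6, and the gene is on the minus strand.

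**Figure D2:**
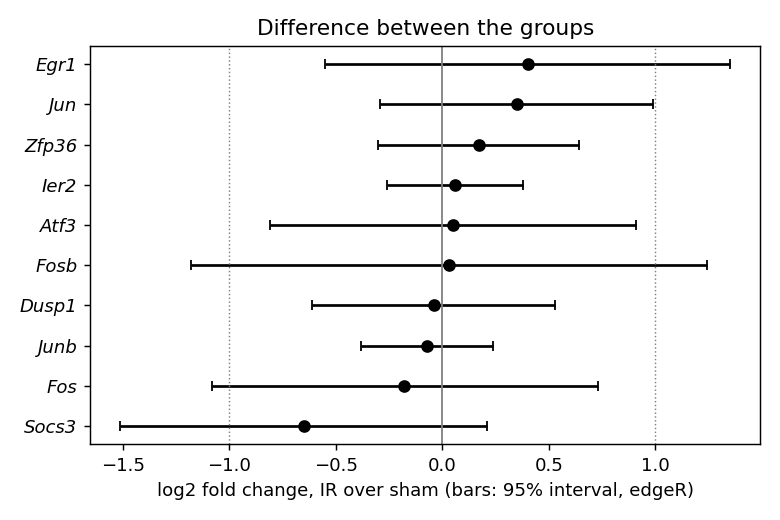
Log2 fold change of IR over sham for the 10 mRNAs (edgeR, 4 libraries per group), with 95% intervals as bars and dotted lines at a fold of 2 in either direction. Every interval crosses 0, and Socs3 is farthest from it at -0.65.

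Of the 10 mRNAs, 0 were called by edgeR at an adjusted p under 0.05 and a fold over 2, against 0.0% of the 12716 mRNAs tested, and 0 by DESeq2, which called 40 mRNAs in all. At an unadjusted edgeR p under 0.05, 0 of 10 were higher (4.87% of all mRNAs tested) and 0 of 10 lower (4.86%), together 0 of 10 against 9.73%. No member had IR values wholly above (0.873%) or wholly below (4.37%) the sham values. The median log2 fold change of the 10 was 0.04, with 6 above and 4 below 0, and that of all mRNAs tested was 0.0. A p that misses the threshold does not show equal levels: the 95% intervals of Jun, Junb, Atf3, Ier2, Zfp36 and Dusp1 stayed within a fold of 2 in both directions, whereas those of Fos, Fosb, Egr1 and Socs3 did not.

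Most of the 10 varied more between mice of a group than other mRNAs did. The biological coefficient of variation, the spread within groups beyond counting error, had a median of 33.0% over the 10 and of 18.1% over all mRNAs tested, and 8 of the 10 were above the latter. It was highest for Fosb (52.2%), Egr1 (41.1%) and Fos (39.5%). Junb (16.0%) and Ier2 (16.2%) were the exceptions.

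**Figure D3:**
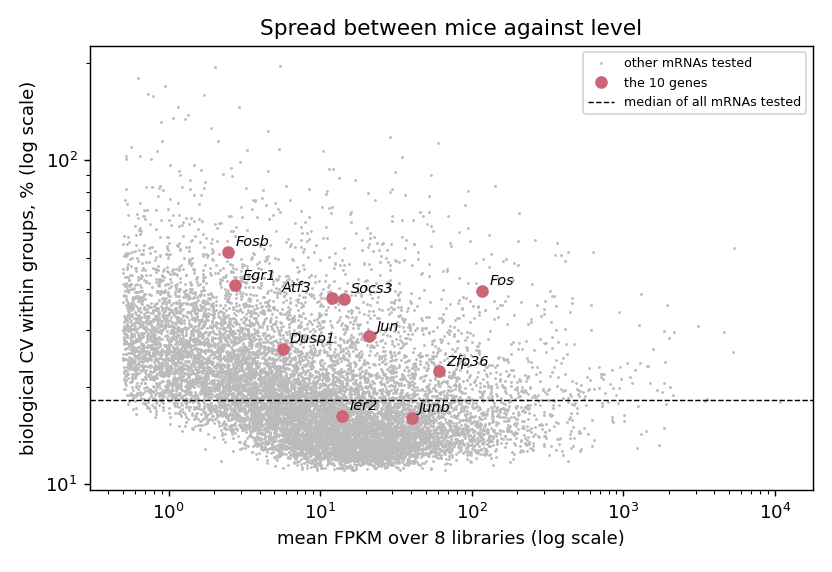
Biological coefficient of variation within groups (%, log scale) against mean FPKM over 8 libraries (log scale) for all 12716 mRNAs tested (grey) and the 10 genes (red). Only Junb and Ier2 lie below the median of all mRNAs (18.1%, dashed).

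The libraries that were high or low were largely the same for the immediate early genes. IR 4 was the lowest library for 7 of the 10 (Fos, Fosb, Jun, Junb, Atf3, Zfp36 and Dusp1). In log2(FPKM + 0.1), sham 3 was above the mean of the 8 libraries for all 10, though by only 0.01 for Jun, 0.06 for Zfp36 and 0.09 for Ier2. It was the highest library for 4 of the 10. Averaged over the 9 genes other than Socs3, the deviation of log2(FPKM + 0.1) from each gene's mean was 0.44 in sham 3 and -0.63 in IR 4, and it lay between -0.21 and 0.30 in the other 6 libraries. Scaled by TMM factors instead, sham 3 was at 0.49 and IR 4 at -0.71. In that scaling sham 1, 2 and 4 were at -0.14, -0.22 and -0.23, and IR 1, 2 and 3 at 0.21, 0.23 and 0.38. Apart from sham 3 and IR 4, the sham libraries thus lay below 0 and the IR libraries above it. Sham 3 was the most deeply sequenced library (22497260 fragments) and IR 4 had 14670625, more than IR 1 with 13824442. The summed T lymphocyte markers were 342 FPKM in IR 4, 405 in IR 1, 286 in IR 3 and 165 in IR 2, against 75.3 to 259 FPKM in sham libraries. The part of depth and of these cells in the pattern was not tested.

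**Figure D4:**
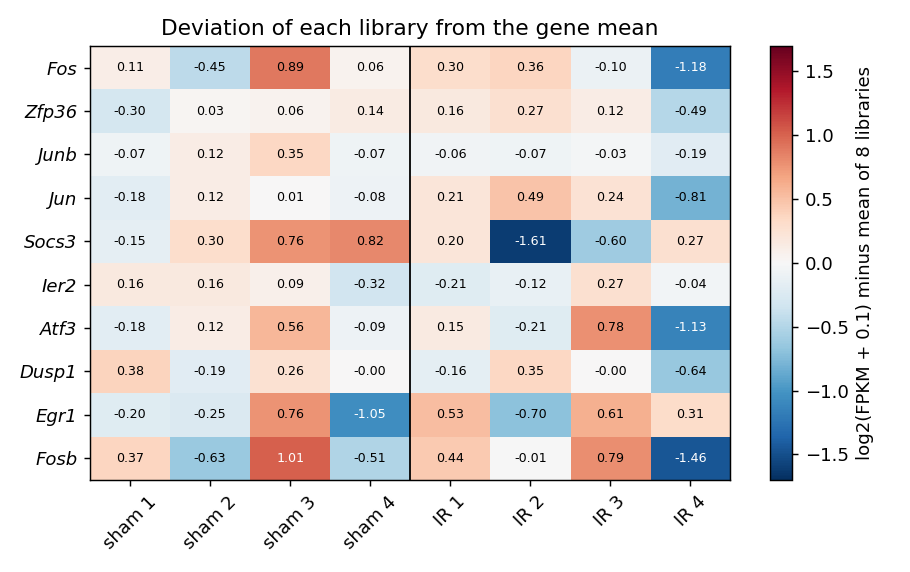
Deviation of log2(FPKM + 0.1) from the mean of the 8 libraries for each gene and library. IR 4 is low for Fosb (-1.46), Fos (-1.18) and Atf3 (-1.13), sham 3 is high in every row, and Socs3 is lowest in IR 2 (-1.61).

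Across the 8 libraries, 31 of the 36 pairs among the 9 immediate early genes had a Pearson r above 0, with a median of 0.46. The closest were Jun with Zfp36 (0.91), Fosb with Atf3 (0.85), Fos with Fosb (0.84) and Fos with Dusp1 (0.82). Without IR 4 the median was 0.14, and without sham 3 it was 0.44, so the relation rested in part on IR 4. Socs3 stood aside, with r above 0 to 2 of the other 9 genes, from -0.51 (Jun) to 0.35 (Junb). These values describe 8 libraries that share their preparation and scaling. The r of pairs of other mRNAs was not computed, so the count above 0 and the median stand without a background. The mRNAs whose levels followed the mean of the 10 most closely were Fam110c (r = 0.892), Fam187b (0.874), Mapk3 (0.855), Cmbl (0.854), Cnnm3 (0.847), Cyp4f14 (0.842), Yaf2 (0.837) and Rufy1 (0.836), over 8 libraries. Those closest to Socs3 were Ociad2 (0.985), Ifnar1 (0.974), Fbxl17 (0.968), B4galnt4 (0.965) and Adamdec1 (0.964).

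The wider early response had no called member either. Of 44 further immediate early genes, 43 were in the table and 36 were tested, with a median log2 fold change of -0.03. At an unadjusted edgeR p under 0.05, 1 was higher (Pim1) and 3 lower (Cebpb, Myc and Gadd45b), against 4.87% and 4.86% of all mRNAs tested, and 0 were called after adjustment. Cebpb, a transcription factor of inflammation and growth, was not called at a log2 difference of -0.45 (SE 0.11, edgeR adjusted p = 0.455). Its sham values of 16.0 to 17.1 FPKM lay above all IR values, 9.97 to 13.0 FPKM, as for 4.37% of all mRNAs tested. Myc, a growth regulator, measured 5.29 ± 0.987 FPKM in sham and 3.10 ± 0.960 FPKM in IR libraries (SD, n = 4), a log2 difference of -0.61 (edgeR adjusted p = 0.455). Gadd45b, a stress gene, was also at -0.61 (adjusted p = 0.512 in edgeR), and Pim1, a kinase gene induced by STAT factors, at 0.61 (adjusted p = 0.492 in edgeR). Fosl1, Egr2, Egr3, Egr4, Nr4a3, Arc and Npas4 were below the FPKM minimum, and Egr4 was listed at 0 in all 8 libraries. Sgk1, a serum-induced kinase, was more abundant than Fos, at 276 ± 190.2 FPKM in sham and 248.6 ± 137 FPKM in IR.

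Upstream of these genes, 19 genes of serum response factor and its cofactors and of the MAP kinase cascade were tested. With an unadjusted edgeR p under 0.05, 0 were higher and 1 lower, against 4.87% and 4.86% of all mRNAs tested. That gene was Srf, at 7.16 to 8.80 FPKM in sham and 5.38 to 6.68 FPKM in IR libraries, with a log2 difference of -0.30 (SE 0.11, edgeR adjusted p = 0.479). Its IR FPKM values lay wholly below the sham values, as for 4.37% of all mRNAs tested, but scaled by TMM factors they overlapped. The list's median log2 fold change was 0.04. Of 14 mRNAs with AU-rich elements that ZFP36 is known to bind, 7 passed the minimum. Ccl3, a chemokine, had a log2 difference of 1.53 (unadjusted p = 0.0449, adjusted p = 0.504 in edgeR) on 2 to 19 fragments per library, and the other 6 had an unadjusted p of 0.05 or more. Among all mRNAs tested, 4.87% had an unadjusted edgeR p under 0.05 and were higher in IR.

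Around Socs3, no other gene of its family and pathway was at an unadjusted edgeR p under 0.05 in either direction (9.73% of all mRNAs tested were). This held for 7 SOCS family genes, 16 genes of IL-6 family and STAT3 signalling and 11 STAT3 response genes, Junb and Stat3 among the last, with median log2 fold changes of 0.02, 0.12 and 0.0. Socs2 and Socs6 had every IR FPKM below every sham FPKM, as had 4.37% of all mRNAs tested, and both overlapped when scaled by TMM factors. Among the STAT3 response genes Nos2, inducible nitric oxide synthase, had the lowest log2 difference, at -1.37 (SE 0.65, edgeR adjusted p = 0.527). The study listed Nos2 too as downregulated and reported a significant difference in the same direction by RT-qPCR. The acute phase genes Hp, Saa3 and Lcn2 had log2 differences of 3.23, 2.47 and 1.04, with edgeR adjusted p of 0.57, 0.538 and 0.667. All 3 were highest in IR 4, at 14.6, 19.1 and 12.4 FPKM, against at most 3.00 FPKM in any other library. Library by library, Socs3 followed Reg3b, an antimicrobial lectin of the intestine and pancreas. Reg3b measured 4923, 4830, 8636 and 8448 FPKM in sham and 4960, 1445, 1231 and 8341 FPKM in IR libraries, so that IR 2 and IR 3 were lowest for both genes. Over 8 libraries r was 0.88, with and without IR 2, and 0.613% of the mRNAs tested had a higher r with Socs3. The r with Reg3g was 0.82 (0.55 without IR 2) and with Stat3 0.76 (0.52). These are the highest of the 3 lists, whose median r with Socs3 was 0.35 for the STAT3 response genes, 0.14 for IL-6 family and STAT3 signalling and 0.19 for the SOCS family. The lowest were -0.57 (Il22ra1) and -0.55 (Socs4), and Saa3 (0.02), Hp (0.11) and Bcl3 (-0.17) were near 0. Among all mRNAs tested, 36.5% had a higher r with Socs3 than 0.35 (Nos2), and 52.8% a higher r than 0.19. The medians of the SOCS family and of IL-6 family and STAT3 signalling were thus no higher than the r of most mRNAs. Reg3b, Reg3g and Stat3 were singled out here after their values were seen, and the correlations are given without a test.

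**Figure D5:**
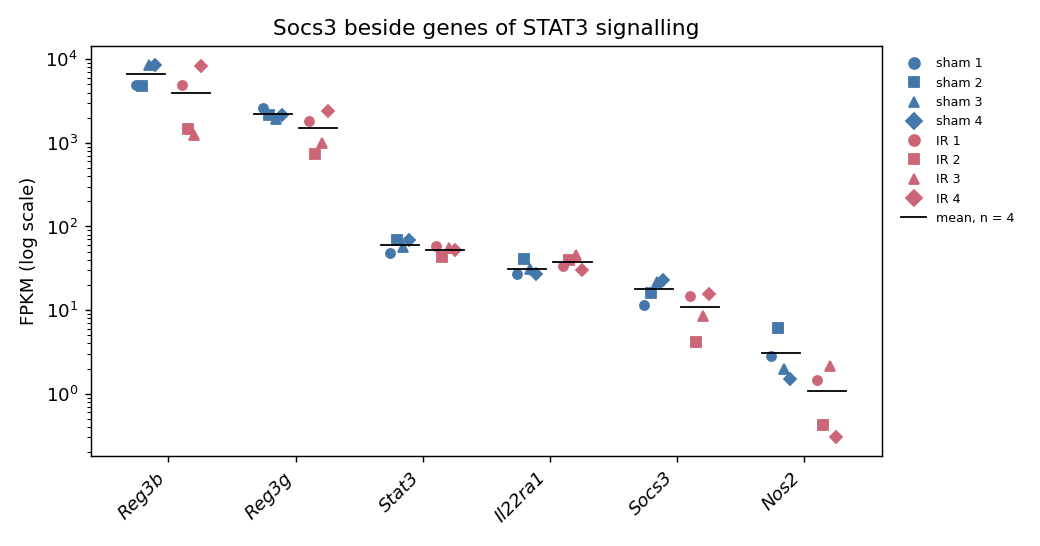
FPKM (log scale) of Socs3 and 5 genes of STAT3 signalling in the 4 sham (blue) and 4 IR (red) libraries, with group means as bars. Socs3 and Reg3b are both lowest in IR 2 and IR 3, where Reg3b measured 1445 and 1231 FPKM.

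The lncRNA table assigned 6 of its 31549 transcripts to a member gene. Both at Atf3 (AK139716_2 and ENSMUST00000157836) were at 0 in all libraries. ENSMUST00000125917, transcribed away from the Jun promoter, was the only one above the minimum, at 1.47, 0.669, 1.13 and 0.105 FPKM in sham and 0.146, 0.339, 0.417 and 0.288 FPKM in IR libraries. Sham 4 was its lowest library and the other 3 sham values lay above all IR values. The log2 difference was -1.34 (SE 0.74, interval -3.03 to 0.36, edgeR adjusted p = 0.758) on 1 to 12 fragments per library, against 0.35 for Jun itself. It was not called (0.0% of the 3088 lncRNAs tested were), and it was not at an unadjusted edgeR p under 0.05, where 4.31% were higher, 2.75% lower and 7.06% either. Its groups overlapped, whereas IR values lay wholly above sham values for 1.94% and wholly below for 2.88% of the lncRNAs. An antisense transcript at Jun (0 to 9 fragments per library), one overlapping Junb (0 to 3) and one antisense to Zfp36 (7 to 16) were below the minimum. Neither the strand setting nor the treatment of overlaps in counting is stated, so reads of such pairs may be shared.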

How the data were processed

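EV RNA of 4 sham and 4 IR mice was made into stranded, rRNA-depleted libraries, and the authors trimmed reads with cutadapt (1.9.3), mapped them to mm10 with HISAT2 and quantified genes with Cuffdiff. The tables deposited by the authors hold FPKM and estimated counts, the latter scaled by library. To recover whole fragments, counts were divided by each library's commonest value (0.763 to 1.18) and rounded. Within 0.02, 90.9% to 91.2% of mRNA values came out whole, but only 63.3% to 64.4% of lncRNA values. The lncRNA fragment counts and tests therefore rest more on rounding. Sham and IR libraries were tested by the two-sided quasi-likelihood F test of edgeR 4.0.16 with TMM factors and robust dispersions, mRNAs and lncRNAs apart. Features averaging 0.5 FPKM or more entered, p-values were adjusted by Benjamini-Hochberg, and calls were made at adjusted p below 0.05 with a fold above 2. Standard errors are the log2 fold change over the root of F. Replicates are separate mice. The numbers did not pair them.

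The members and lists were chosen with earlier results of these data known. The 10 members were described in full, and other lists by counts with at most the 4 genes of smallest p, beside the genes whose pattern was most like the members. Sgk1, Reg3b, Stat3, Lcn2 and Bcl3 were named outside that rule, after their values were seen. Il22ra1, Socs2 and Socs4 were among the 4 of smallest p in their lists, but were named for other values that had been seen. Alternatives were median-ratio scaling, no filter, a replicate block, DESeq2 1.42.0, limma 3.58.1 on log2(FPKM + 0.1) and log2(FPKM + 1), and each library left out. The test was checked on simulated counts. Promoters are from RefSeq. Intestinal, cardiomyocyte, lymphocyte and other marker lists were summed, of which crypt genes (8 tested, 0 higher and 2 lower at an unadjusted p under 0.05), goblet and Paneth genes (9, 1 and 1), fibroblast and endothelial genes (9, 0 and 0), T lymphocyte genes (10, 7 and 0), myeloid genes (6, 1 and 0), enterocyte genes (14, 6 and 1), cardiomyocyte genes (3, 0 and 0) and mitochondrially encoded genes (12, 1 and 1) were tested with edgeR. Among all mRNAs tested, 4.87% were higher and 4.86% lower at that unadjusted p.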

Additional observations from a re-analysis of the deposited data

How the results depend on the processing

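No member passed the called threshold in any alternative. Over all mRNAs the count called was 0 with edgeR, 40 with DESeq2 (31 higher, 9 lower) and 0 to 4 with 1 library left out, the 4 being without sham 2. With 1 library left out, members at an unadjusted p under 0.05 and higher in IR numbered 0 to 1 (Jun without IR 4, Egr1 without sham 3), and members whose groups did not overlap 0 to 1 (Jun without IR 4, where 1.48% of all mRNAs tested had IR values wholly above, and Socs3 without sham 1, where 5.97% had them wholly below). With the replicate number as a block, 0 members were at p under 0.05 in either direction and the lncRNA ENSMUST00000125917 was at -1.11. That lncRNA ranged from -1.71 to -0.99 with 1 library left out, and without sham 4 (-1.71) its unadjusted edgeR p was 0.0146 (adjusted p = 0.892). It was at -0.95 and -0.45 with limma on log2(FPKM + 0.1) and log2(FPKM + 1). Log2 differences near 0 changed sign, and the cause of these changes was not tested. Fosb was at -0.01 and Atf3 at -0.06 with the replicate block, at -0.12 and -0.20 with limma on log2(FPKM + 0.1), and at -0.06 and -0.18 with log2(FPKM + 1), and Ier2 was at -0.05 in both limma fits. Limma on FPKM lowered the median of all mRNAs by 0.10 and 0.09. With 1 library left out, Fos ranged from -0.41 to 0.17, Fosb from -0.26 to 0.52, Junb from -0.15 to 0.06, Atf3 from -0.30 to 0.31, Ier2 from -0.05 to 0.12 and Dusp1 from -0.28 to 0.15. Jun (0.13 to 0.59), Egr1 (0.17 to 0.90), Zfp36 (0.04 to 0.34) and Socs3 (-0.87 to -0.39) kept their sign. Testing each entry alone gave no other value, as each member has 1 entry. Depth limits the lncRNA values, which rest on 0 to 16 fragments per library.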
